A study of Mus musculus with 11 samples.

Results

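Transcripts of death receptor signalling, of the caspases and of necroptosis were followed across hepatocytes of 4 mouse genotypes. Of the 10 listed genes, 9 had a row of the deposited array table annotated to them alone, out of 30142 genes with such a row: the death receptors Fas, Tnfrsf10b and Tnfrsf1a, the apoptotic genes Casp8 and Bid, the inflammatory caspases Casp1 and Casp4, and the necroptosis genes Mlkl and Ripk3. Ripk1 had no such row and was not analysed here. A gene with several such rows was read from the brightest of them, by its mean over the arrays.

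Hepatocytes were isolated from 12-week-old male mice and RNA was measured on 11 whole-transcript expression arrays. The double KO mice (n = 3) lacked Nemo in liver parenchymal cells and also lacked Cxcr6, and the Nemo KO mice (n = 3) lacked Nemo in liver parenchymal cells alone. The Cxcr6 KO mice (n = 3) lacked Cxcr6 with Nemo intact, and the wildtype mice (n = 2) had both genes. By their source names, double KO and Cxcr6 KO were the Cre-positive and Cre-negative animals of the Nemo_CXCR6 line, and Nemo KO and wildtype the Cre-positive and Cre-negative animals of the Nemo line. Each Nemo comparison therefore lay within a line, while Cxcr6 status and mouse line cannot be told apart. The promoter that drove Cre was not given in the sources used here. Replicates were labelled biological without saying that each was a separate mouse, so p-values measure the spread between these samples.

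Nemo, encoded by Ikbkg, is the scaffold that the IkB kinases need to switch on NF-kB. When TNF binds TNF receptor 1, NF-kB normally induces genes that keep the cell alive, and without it the same receptor can lead through caspase-8 to apoptosis or, when caspase-8 is held back, through the kinases RIPK1 and RIPK3 to necroptosis. Mice whose hepatocytes lack Nemo are known for spontaneous hepatocyte death, hepatitis and liver tumours. Cxcr6 is carried by NKT cells and T cells and guides them along a chemokine. The comparisons bear on how the transcripts of the death machinery itself differed with Nemo and with Cxcr6.

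The values are log2 signals, on which a difference of 1 unit is a 2-fold difference in signal. Arrays carry no read depth, and their number limits the precision. Testing required that at least 1 group averaged 5.27 or more, the median row mean of the table, which left 18337 genes and 8 of the 9 measured members. Casp4 reached this level through the double KO group alone, so it had to be higher there than elsewhere to be tested at all. Ripk3 lay below it on all 11 arrays and was not tested. The Ikbkg row was called in none of the comparisons and read 8.76, 8.90 and 9.49 in double KO, 9.33, 9.18 and 9.45 in Nemo KO, 9.18, 9.12 and 9.16 in Cxcr6 KO, and 9.02 and 9.47 in wildtype hepatocytes. Cxcr6 lay between 4.94 and 5.56 on all arrays. The position of the probes relative to the deleted exons is unknown for both rows, and neither checks the labels. The 13 hepatocyte markers averaged between 17.94 and 18.25 on every array. Some lay near the highest value of the table, 19.93, such as Alb at 19.82 to 19.93, so this average may hide changes.

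**Figure D1:**
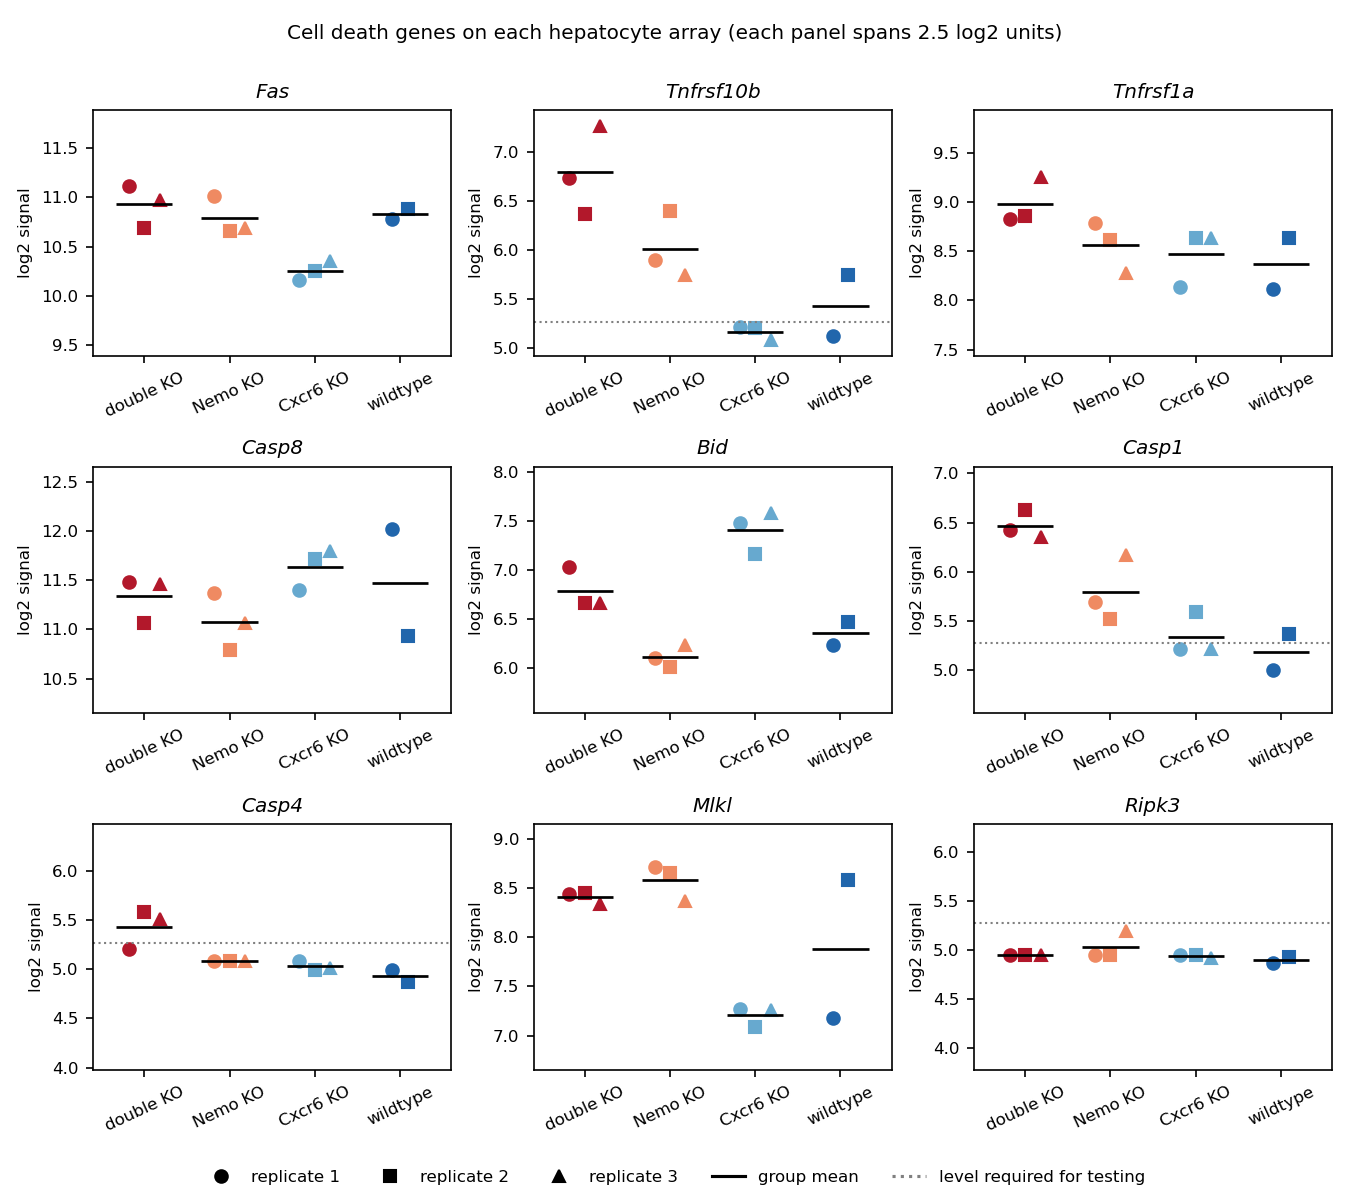
Log2 signal of the 9 measured members (y axis, each panel spanning the same number of log2 units) on each of the 11 arrays, by genotype, with a bar at the group mean and a dotted line at the level required for testing. Tnfrsf10b, Casp1 and Casp4 were highest in double KO hepatocytes, Mlkl separated the Nemo-deleted arrays and wildtype replicate 2 from the other 4 arrays, Bid was highest in Cxcr6 KO, and Ripk3 stayed below the testing level throughout.

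On average over both lines, hepatocytes with Nemo deleted had higher signals of the TRAIL receptor, of Casp1 and of the necroptosis executor, and a lower signal of Bid. In the Cxcr6-deficient line (double KO against Cxcr6 KO), Fas, Tnfrsf10b, Casp1 and Mlkl rose and Bid fell among the 7 members that reached the testing level in more than 1 group (limma, Benjamini-Hochberg over all 18337 genes, called at 5%). Casp4 was called higher too, but it could be tested only through its double KO level. Of all genes tested, 3.44% rose and 3.96% fell in this comparison (631 and 727 genes, against 656 and 463 with arrays centred on their medians and 647 and 1094 after quantile normalization). Markers of macrophages, endothelial cells and stellate cells rose in it too, as described with those markers. In such bulk samples a change in the number of cells of a type and a change in the RNA per cell cannot be told apart. The median difference was 0.68 over these 7 members and -0.06 over all genes tested. The array values separated for Fas, Tnfrsf10b, Tnfrsf1a, Casp1, Casp4 and Mlkl, which were higher on every double KO array than on any Cxcr6 KO array, and for Bid, which was lower on every one. The corresponding shares of all genes were 13.3% higher and 24.4% lower. Leaving out Cxcr6 KO replicate 3 left 0 members called, leaving out Cxcr6 KO replicate 2 left Casp1, leaving out double KO replicate 3 left Tnfrsf10b, and leaving out Cxcr6 KO replicate 1 left 2 members. Leaving out double KO replicate 2 or Nemo KO replicate 1 left 3. The calls over all genes moved as well, from 1358 to 116 without Cxcr6 KO replicate 3, 202 without Cxcr6 KO replicate 2, 526 without Cxcr6 KO replicate 1, 203 without double KO replicate 3, 533 without double KO replicate 2 and 762 without Nemo KO replicate 1. The differences themselves moved less: without Cxcr6 KO replicate 3 they were 1.58 for Tnfrsf10b, 1.07 for Casp1 and 1.23 for Mlkl.

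In the Cxcr6-intact line (Nemo KO against wildtype), limma called none of the 8 members, against 0.158% of all genes called in either direction and 4506 genes at an unadjusted p under 0.05. That background share, 29 genes, was itself unstable: 1274 genes were called with median centring, 1023 without Nemo KO replicate 3, 184 without wildtype replicate 1 and 0 with array weights or the replicate block. The median was 0.19 over the 7 members other than Casp4, against -0.04 over all genes. Casp1 and Casp4 were higher on all 3 Nemo KO arrays than on both wildtype arrays, as were 11.3% of all genes, and Bid was lower on all 3, as were 24.7%. The Casp4 values of both groups lay below the testing level. The result turned on which wildtype array was used, the lone one being assumed to vary like the other groups. Without wildtype replicate 2, Mlkl rose by 1.40 (adjusted p = 0.00635) and Casp8 fell by 0.95 (adjusted p = 0.0496), while 360 genes rose and 2009 fell in all. Without wildtype replicate 1, the Mlkl difference was -0.004 and that of Casp8 0.14, and neither passed.

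Averaged over both lines, Tnfrsf10b, Casp1 and Mlkl rose with Nemo deletion and Bid fell among those 7 members, and Casp4 was called higher with the same limit. Of all genes, 4.84% rose and 15.4% fell in this average. The median of the 7 was 0.35, against -0.04 over all genes. Tnfrsf10b, Casp1 and Mlkl were called in the average under all 19 alternative settings, those that left out an array included. Casp4 and Bid both lost their calls when double KO replicate 2 or 3, Nemo KO replicate 2, Cxcr6 KO replicate 3 or either wildtype replicate was left out, which left 3 or 4 members called. Casp4 also lost its call without Nemo KO replicate 1 (adjusted p = 0.0611) or Cxcr6 KO replicate 2 (adjusted p = 0.0731), and Bid with array weights (adjusted p = 0.0687). The average uses the same arrays as the line-by-line comparisons and is not separate evidence from them.

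**Figure D2:**
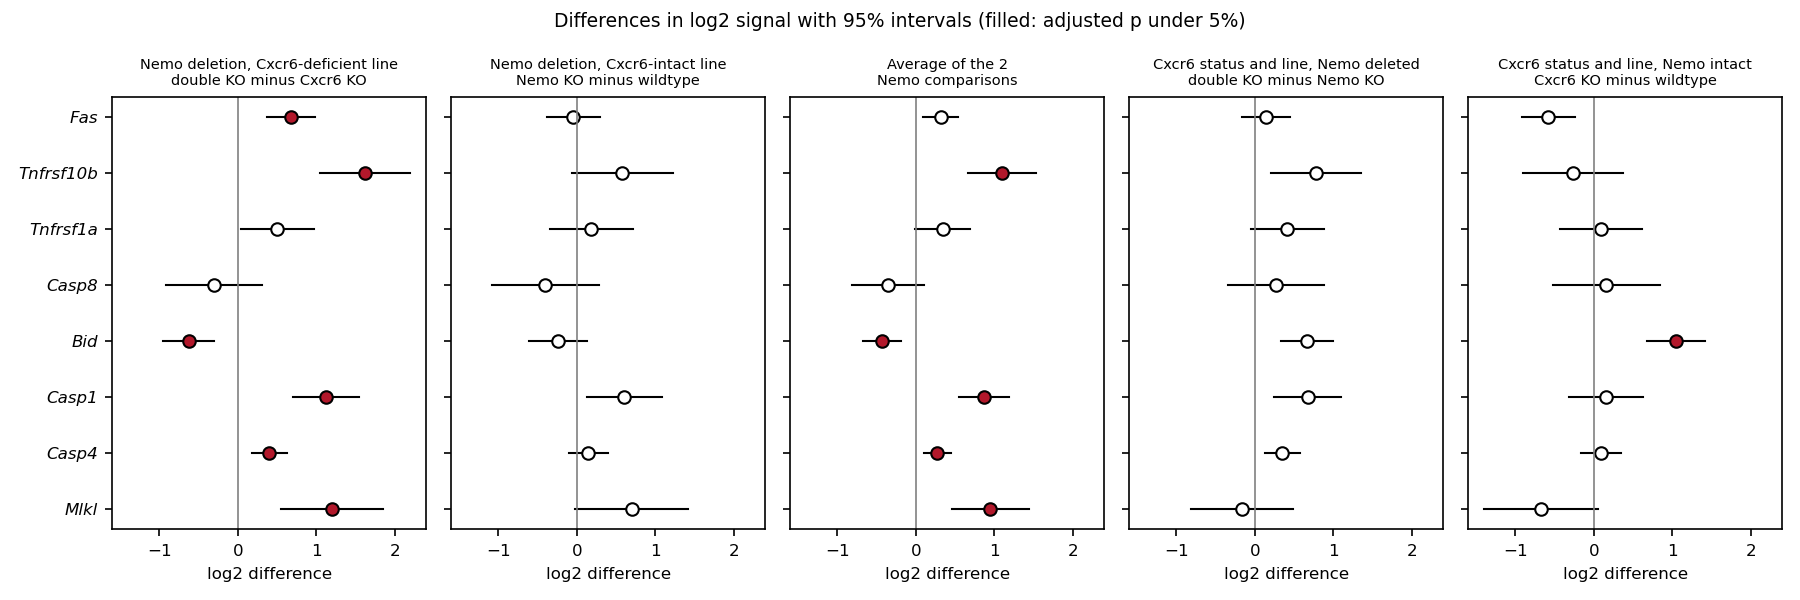
Differences in log2 signal (x axis) of the 8 tested members in 5 comparisons, with 95% intervals from the fit as horizontal lines and filled points where the adjusted p was under 5%. Tnfrsf10b, Tnfrsf1a, Casp1, Casp4 and Mlkl lay to the right of 0 in all 3 Nemo panels, and Bid and Casp8 to the left. The third Nemo panel averages the others, and Casp4 was testable only through its double KO level. In Nemo KO against wildtype only the Casp1 interval left out 0, and no member was called. Bid alone was called between Cxcr6 KO and wildtype.

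Among the receptors, Tnfrsf10b had the largest differences. It encodes the mouse receptor for TRAIL, a ligand carried by NK cells and other immune cells that triggers apoptosis through caspase-8. Its signal was 6.74, 6.37 and 7.26 in double KO, 5.90, 6.40 and 5.75 in Nemo KO, 5.21, 5.21 and 5.09 in Cxcr6 KO, and 5.12 and 5.75 in wildtype hepatocytes. All 3 double KO arrays lay above every Cxcr6 KO and wildtype array, Nemo KO overlapped its neighbours on either side, and the Cxcr6 KO arrays lay below the testing level. Double KO exceeded Cxcr6 KO by 1.62 ± 0.25 (SE; 3.07-fold, adjusted p = 0.0141), and the average over both lines was 1.10 ± 0.19 (2.14-fold, adjusted p = 0.0105). Nemo KO exceeded wildtype by 0.58 ± 0.28 (adjusted p = 0.244), with a 95% interval from -0.06 to 1.22.

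Fas, the receptor through which cytotoxic lymphocytes kill hepatocytes, was abundant in all groups. It read 11.12, 10.69 and 10.98 in double KO, 11.02, 10.66 and 10.69 in Nemo KO, 10.16, 10.25 and 10.35 in Cxcr6 KO, and 10.78 and 10.89 in wildtype hepatocytes. The low group was Cxcr6 KO, which did not overlap any other, while the other groups overlapped one another. Fas rose in double KO against Cxcr6 KO by 0.68 ± 0.14 (1.60-fold, adjusted p = 0.024), and between Nemo KO and wildtype the difference was -0.04 ± 0.15 (adjusted p = 0.895). Cxcr6 KO was 0.58 ± 0.15 lower than wildtype on the log2 scale, on every array, without passing the test (adjusted p = 0.181). A further Fas row of much lower mean signal, 5.87, ran from 5.46 to 6.36, and with the mean of both rows the Fas call was lost (difference 0.41, adjusted p = 0.0822).

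Tnfrsf1a, TNF receptor 1, had 8.82, 8.86 and 9.25 in double KO, 8.78, 8.62 and 8.28 in Nemo KO, 8.14, 8.64 and 8.64 in Cxcr6 KO, and 8.12 and 8.63 in wildtype hepatocytes. Every double KO array was above all arrays of the other groups, which overlapped one another. The difference of 0.51 ± 0.21 between double KO and Cxcr6 KO did not pass (adjusted p = 0.145), nor did that of 0.41 ± 0.21 between double KO and Nemo KO (adjusted p = 0.348).

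Casp8, the initiator caspase that these receptors engage, passed no test with all arrays in the fit. It read 11.48, 11.07 and 11.46 in double KO, 11.37, 10.79 and 11.06 in Nemo KO, 11.40, 11.71 and 11.80 in Cxcr6 KO, and 12.02 and 10.93 in wildtype hepatocytes. All neighbouring groups overlapped, and the wildtype pair held both the highest array and the second lowest. The average Nemo difference was -0.35 ± 0.20 (adjusted p = 0.26), with a 95% interval from -0.81 to 0.11.

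Bid is the BH3-only protein that caspase-8 cleaves to carry the death signal to mitochondria, a step that hepatocytes need for Fas killing. It read 7.03, 6.66 and 6.66 in double KO, 6.10, 6.02 and 6.23 in Nemo KO, 7.47, 7.16 and 7.58 in Cxcr6 KO, and 6.24 and 6.47 in wildtype hepatocytes. The groups were ordered Cxcr6 KO, double KO, wildtype and Nemo KO, and no neighbours in that order overlapped. Bid fell with Nemo deletion, by 0.62 ± 0.14 in double KO against Cxcr6 KO (adjusted p = 0.0374) and by 0.43 ± 0.11 on average (adjusted p = 0.0253). Nemo KO against wildtype gave -0.24 ± 0.16 (adjusted p = 0.399).

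Casp1, the protease that matures interleukin-1 beta and interleukin-18 and cuts gasdermin D, read 6.43, 6.63 and 6.35 in double KO, 5.69, 5.52 and 6.17 in Nemo KO, 5.22, 5.59 and 5.22 in Cxcr6 KO, and 5.0 and 5.37 in wildtype hepatocytes. The double KO arrays lay above all others. Casp1 rose by 1.13 ± 0.19 in double KO against Cxcr6 KO (2.18-fold, adjusted p = 0.016) and by 0.87 ± 0.14 on average (1.83-fold, adjusted p = 0.00953). Nemo KO exceeded wildtype by 0.61 ± 0.21 (adjusted p = 0.123).

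Casp4, the mouse gene for caspase-11, which senses bacterial lipopolysaccharide inside cells, lay close to the lower range of the arrays. Its signal was 5.21, 5.58 and 5.51 in double KO, 5.08 on all 3 arrays in Nemo KO, 5.08, 5.0 and 5.01 in Cxcr6 KO, and 4.99 and 4.87 in wildtype hepatocytes. Only 2 of the 11 arrays, both double KO, reached the testing level, and the 3 Nemo KO values were nearly identical. Casp4 rose by 0.40 ± 0.10 in double KO against Cxcr6 KO (1.32-fold, adjusted p = 0.0453) and by 0.28 ± 0.08 on average (adjusted p = 0.0328). The average call held in 9 of 18 alternatives and was lost with the replicate block (adjusted p = 0.0657).

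Mlkl, the protein that RIPK3 phosphorylates and that then breaks the plasma membrane, had 8.45, 8.45 and 8.34 in double KO, 8.72, 8.66 and 8.36 in Nemo KO, 7.27, 7.09 and 7.26 in Cxcr6 KO, and 7.18 and 8.58 in wildtype hepatocytes. The 6 Nemo-deleted arrays fell within a narrow band, the 3 Cxcr6 KO arrays and wildtype replicate 1 formed a low set, and wildtype replicate 2 lay inside the Nemo-deleted band. Mlkl rose by 1.20 ± 0.29 in double KO against Cxcr6 KO (2.30-fold, adjusted p = 0.0405) and by 0.95 ± 0.22 on average (1.93-fold, adjusted p = 0.0185). Nemo KO exceeded wildtype by 0.70 ± 0.32 (adjusted p = 0.218). Double KO and Nemo KO differed by -0.17 ± 0.29 (adjusted p = 0.782), with a 95% interval from -0.82 to 0.48.

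Ripk3, the kinase upstream of Mlkl, gave 4.95 on all 3 double KO arrays, 4.95, 4.95 and 5.19 in Nemo KO, 4.95, 4.95 and 4.92 in Cxcr6 KO, and 4.87 and 4.93 in wildtype hepatocytes. The same value, 4.952, stood on 7 of the 11 arrays. Ripk3 is known to be scarce in healthy mouse hepatocytes, and no array here put it above the testing level.

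Cxcr6 status and line were set against the same genes with Nemo deleted and with Nemo intact. With Nemo deleted (double KO against Nemo KO), limma called none of the 8 members, against 0.594% of all genes called in either direction and 3078 genes at an unadjusted p under 0.05. Tnfrsf1a, Casp1, Casp4 and Bid were higher on every double KO array than on any Nemo KO array, as were 12.9% of all genes. Casp4 could be tested only through its double KO level, so its direction in this comparison was set by that selection. The differences were 0.67 ± 0.19 for Casp1 (adjusted p = 0.148), 0.35 ± 0.10 for Casp4 (adjusted p = 0.155), 0.67 ± 0.14 for Bid (adjusted p = 0.0815) and 0.78 ± 0.25 for Tnfrsf10b (adjusted p = 0.195). With weights estimated for each array, Casp1 and Bid passed (adjusted p = 0.0304 and 0.0341), as did Casp4 with that limit (adjusted p = 0.0378). Of all genes, 971 were then called, against 109 without the weights.

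With Nemo intact (Cxcr6 KO against wildtype), Bid rose, by 1.05 ± 0.16 (2.07-fold, adjusted p = 0.0447), against 0.175% of all genes. Bid and Casp4 were higher on every Cxcr6 KO array than on both wildtype arrays (12.7% of all genes) and Fas was lower on every one (11.2%). For Casp4 all these values lay below the testing level, the lowest of Cxcr6 KO being 4.997 and the highest of wildtype 4.993. The Bid call in this comparison held in 6 of 20 alternative settings, with adjusted p between 0.0322 and 0.28 over all of them, and leaving out any array other than double KO replicate 1 or wildtype replicate 2 ended it. Averaged over Nemo status, Bid rose by 0.86 ± 0.11 (1.81-fold, adjusted p = 0.0116), against 0.611% of all genes, and this call held in all 19 alternatives. No other member passed in that average, except that Mlkl fell by 0.77 (adjusted p = 0.00978) when wildtype replicate 1 was left out.

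The difference between the Nemo comparisons of both lines was tested itself, as an interaction. It called 0 of 8 members and 0% of all genes, with 2155 genes at an unadjusted p under 0.05. The largest member estimates were 1.04 ± 0.38 for Tnfrsf10b (adjusted p = 0.356) and 0.72 ± 0.20 for Fas (adjusted p = 0.27). The calls in the Cxcr6-deficient line and their absence in the other line were not shown to differ. The Mlkl estimate followed the wildtype arrays: it was 1.21 and passed (adjusted p = 0.0235) without wildtype replicate 1, when 230 genes were called in all, and was -0.20 (adjusted p = 0.672) without wildtype replicate 2, when 88 were.

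The other genes of these pathways were read from 10 lists. Their calls in double KO against Cxcr6 KO stand beside the 3.44% of all genes that rose and the 3.96% that fell. Those in double KO against Nemo KO stand beside 0.594% of all genes called in either direction. No death ligand of 3 tested was called in either the Cxcr6-deficient line or the average, and Tnfsf10, the gene for TRAIL, differed by 0.20 ± 0.14 between double KO and Cxcr6 KO (adjusted p = 0.365). Tnf (4.44 to 4.49) and Fasl (4.33 to 4.84) lay below the testing level on all arrays and were not tested. Among 10 other TNF receptors, Eda2r, an ectodysplasin receptor and known p53 target, rose in double KO against Cxcr6 KO by 1.50 ± 0.20 (2.83-fold, adjusted p = 0.00892). It read 6.67, 6.89 and 7.47 in double KO and 6.26, 6.26 and 6.23 in Nemo KO, and lay between 5.45 and 5.58 in Cxcr6 KO and at 5.52 and 6.04 in wildtype hepatocytes. In the Nemo average Eda2r and Tnfrsf22 rose, 2 of 10, beside the 4.84% of all genes that rose in it. Of 25 adaptors and brakes of the receptor complex, none rose in double KO against Cxcr6 KO or in the Nemo average. The ubiquitin ligase gene Itch fell by 0.70 ± 0.16 (adjusted p = 0.0343) and the A20 partner Tax1bp1 by 0.45 ± 0.09 (adjusted p = 0.0237) in double KO against Cxcr6 KO. Cyld, a deubiquitinase of RIPK1, and Faim joined them in the average, with Cyld falling by 0.36 ± 0.08 (adjusted p = 0.019). These 4 of 25 stand beside the 15.4% of all genes that fell in the average, a like share. Cflar, the gene for the caspase-8 inhibitor FLIP, differed by -0.23 ± 0.21 (adjusted p = 0.499) in double KO against Cxcr6 KO.

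Casp12, the gene next to Casp4 on chromosome 9, had the clearest separation of the 4 other caspases tested. Its signal was 7.32, 7.01 and 6.81 in double KO, 6.09, 6.36 and 6.09 in Nemo KO, 5.55, 5.52 and 5.54 in Cxcr6 KO, and 5.45 and 5.68 in wildtype hepatocytes. Double KO, Nemo KO and the Nemo-intact arrays formed 3 steps without overlap. Casp12 rose in double KO against Cxcr6 KO by 1.51 ± 0.14 (2.84-fold, adjusted p = 0.00377) and in double KO against Nemo KO by 0.86 ± 0.14 (1.82-fold, adjusted p = 0.0414). Casp6, an executioner caspase, fell in the Nemo average by 0.70 ± 0.17 (adjusted p = 0.0215). Casp12 rose in it, so 1 of 4 fell and 1 of 4 rose, beside 15.4% and 4.84% of all genes. Of 16 inflammasome and pyroptosis genes, Il1a alone was called, and it rose by 1.62 ± 0.36 in double KO against Cxcr6 KO (adjusted p = 0.0336). That is 1 of 16, beside the 3.44% of all genes that rose in this comparison.

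Of 12 genes that trigger or regulate necroptosis, none was called in double KO against Cxcr6 KO, and the chaperone gene Cdc37 fell in the average by 0.38 ± 0.07 (adjusted p = 0.0109). That is 1 of 12, beside the 15.4% of all genes that fell in the average. Among 14 other Bcl2 family genes, Bcl2l13, a mitochondrial family member, rose in double KO against Nemo KO by 1.57 ± 0.23 (2.98-fold, adjusted p = 0.0322) and Bmf fell in double KO against Cxcr6 KO by 0.44 ± 0.08 (adjusted p = 0.0215). Bcl2l13 lies next to Bid on chromosome 6. It read 10.66, 9.62 and 10.39 in double KO and 8.76, 8.63 and 8.55 in Nemo KO, and 10.26, 9.99 and 10.15 in Cxcr6 KO against 9.02 and 8.79 in wildtype hepatocytes, so every array of the Nemo_CXCR6 line was above every array of the Nemo line. Of 11 apoptosome and execution genes, Apaf1, the apoptosome scaffold, rose by 0.92 ± 0.15 (adjusted p = 0.0148) in double KO against Cxcr6 KO, while Cycs, cytochrome c, fell by 0.79 ± 0.20 in the average (adjusted p = 0.0263). In that average Apaf1, Cidea and Cidec rose and Cycs and Dffa fell, 3 and 2 of 11, beside 4.84% and 15.4% of all genes.

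Of 12 p53 targets, Cdkn1a, Mdm2 and Btg2 rose and Sesn2 fell in double KO against Cxcr6 KO. In this comparison 3.44% of all genes rose and 3.96% fell. Cdkn1a, the cell cycle inhibitor p21, rose by 4.28 ± 0.72 (19.4-fold, adjusted p = 0.0163). Its wildtype arrays read 8.91 and 11.46, on either side of the Nemo KO range of 9.45 to 10.37, while Cxcr6 KO lay between 6.01 and 7.11, so the Cxcr6 KO group was the low one. Among 19 interferon-inducible genes, Stat2 rose by 0.78 ± 0.12 in double KO against Cxcr6 KO (adjusted p = 0.0133) and fell by 1.16 ± 0.13 in Cxcr6 KO against wildtype (adjusted p = 0.0114). In the Nemo average Stat2 and Usp18 rose and Cxcl9 fell, 2 and 1 of 19, beside 4.84% and 15.4% of all genes. The mean of these 19 genes was between 7.28 and 7.61 on 10 arrays and 8.44 on wildtype replicate 2, the array on which Mlkl was also high.

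**Figure D3:**
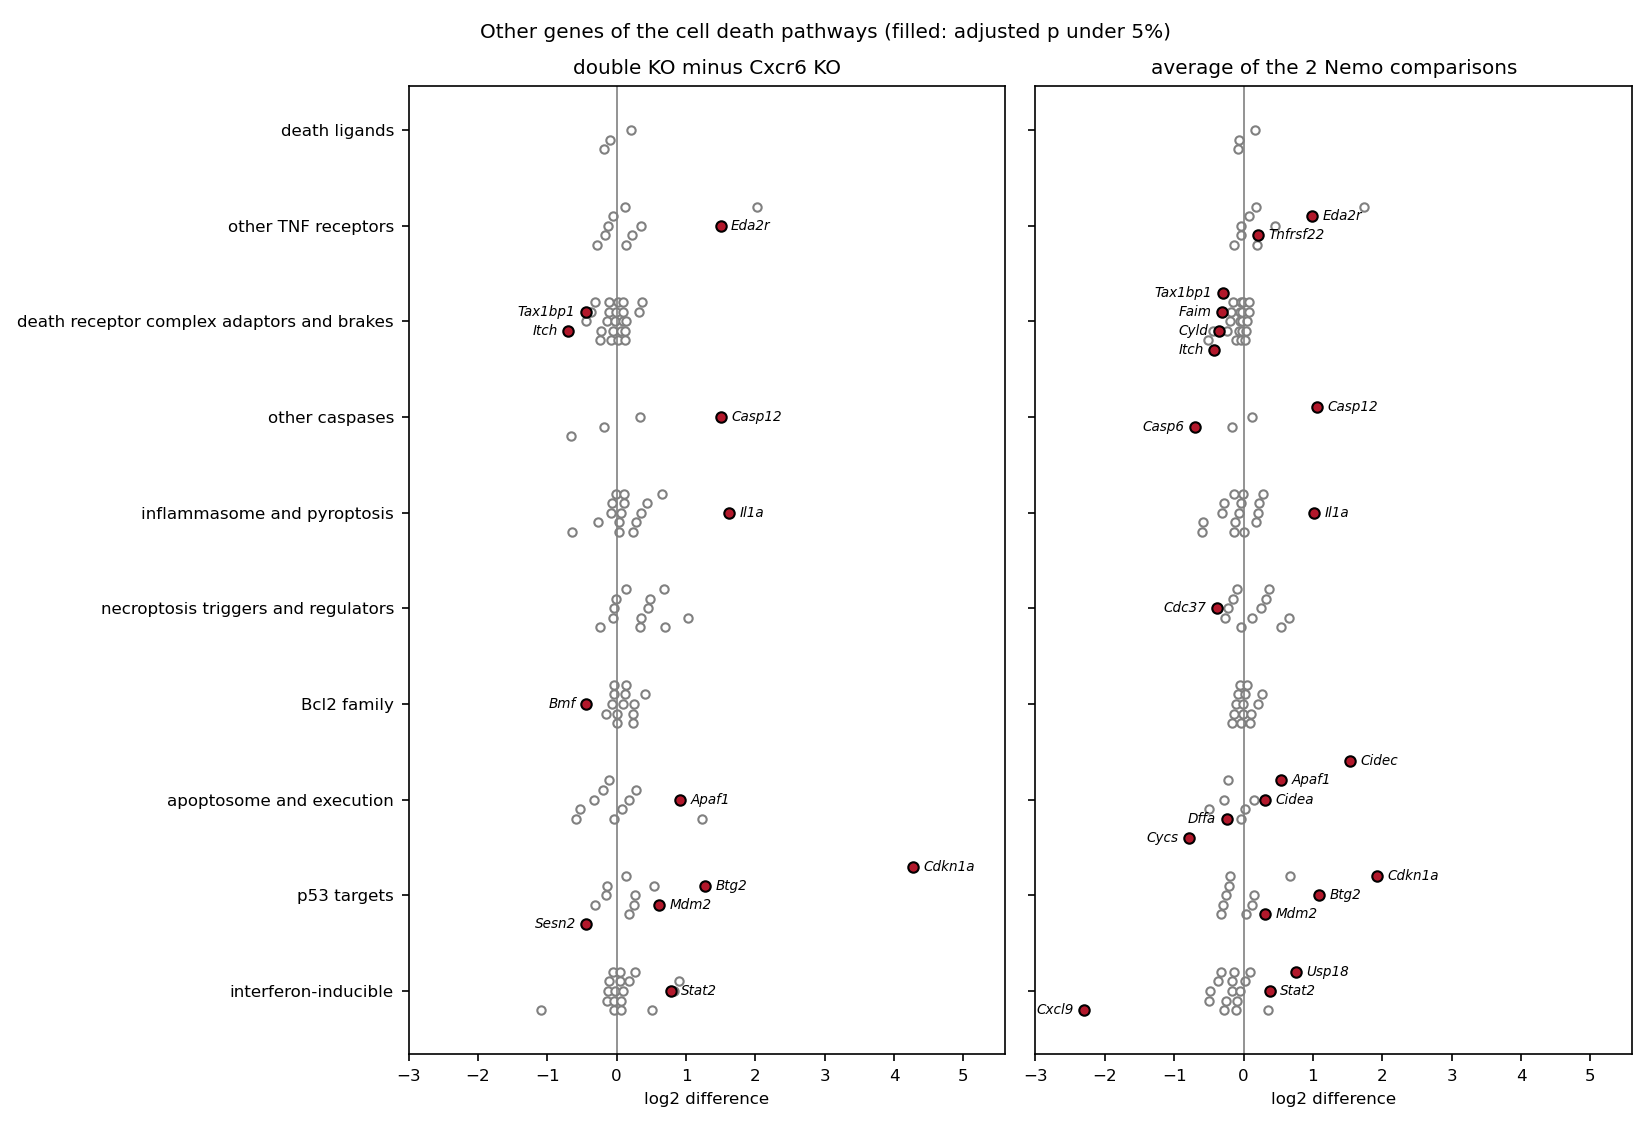
Differences in log2 signal (x axis) of the tested genes of 10 pathway lists (rows) for double KO minus Cxcr6 KO and for the average of both Nemo comparisons, with filled, named points where the adjusted p was under 5%. Most genes lie close to 0, and Eda2r, Casp12, Il1a, Apaf1, Cdkn1a, Btg2, Mdm2 and Stat2 are called on the right in both panels.

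**Figure D4:**
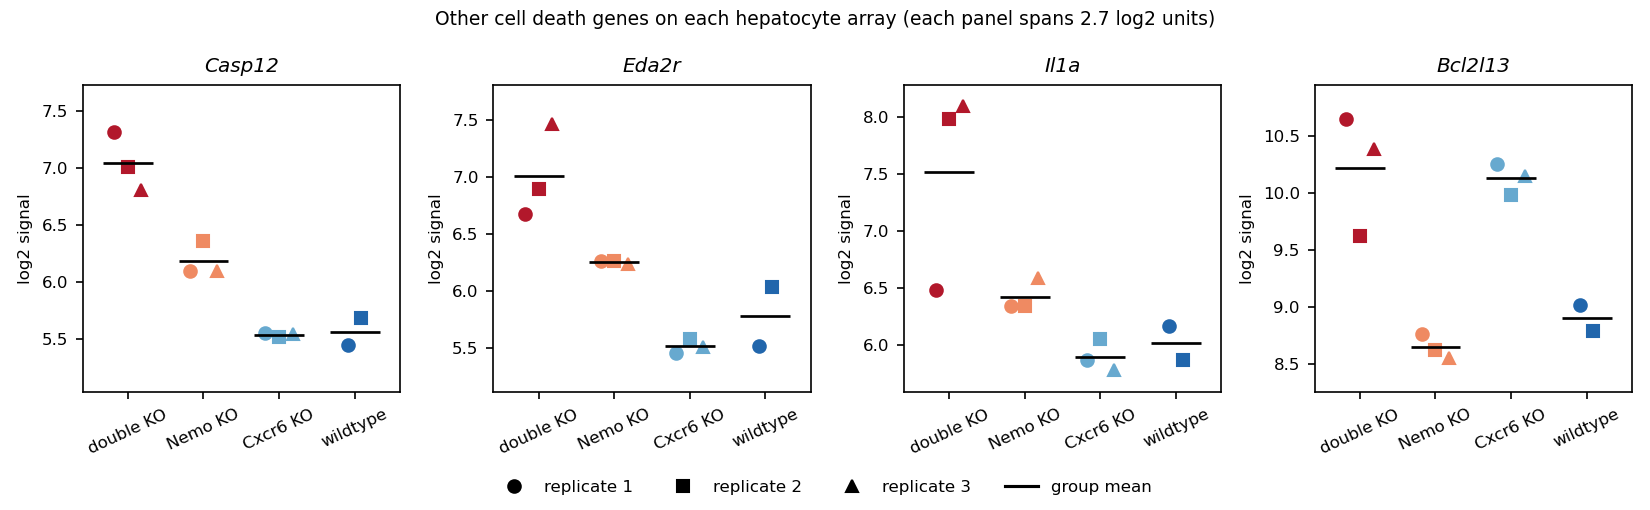
Log2 signal of Casp12, Eda2r, Il1a and Bcl2l13 (y axis) on each array by genotype, with a bar at the group mean. Casp12 fell into 3 steps, Il1a was high on double KO replicates 2 and 3, and Bcl2l13 separated the Nemo_CXCR6 line from the Nemo line.

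Markers of non-parenchymal liver cells moved with the same comparisons. Means of 20 macrophage markers were 7.62, 8.41 and 8.22 in double KO, 7.35, 6.94 and 8.27 in Nemo KO, 6.63, 6.95 and 6.71 in Cxcr6 KO, and 6.27 and 7.24 in wildtype samples, and 7 of 20 rose in double KO against Cxcr6 KO. Clec4f, a defining marker of Kupffer cells, read 8.44 to 8.85 in double KO, 7.07 to 8.92 in Nemo KO, 7.38 to 7.70 in Cxcr6 KO and 6.69 to 7.83 in wildtype samples, above the testing level on every array. Clec4f was not called in double KO against Cxcr6 KO or in the Nemo average. Of the 20 macrophage markers, 19 had a higher mean in double KO than in Cxcr6 KO. Cd163 was lower, at 5.41 to 5.89 against 6.09 to 6.27. In double KO against Cxcr6 KO, 14 of 16 endothelial markers also rose (means 7.89 to 8.75 in double KO, 7.22 to 7.65 in Nemo KO, 6.35 to 6.94 in Cxcr6 KO and 6.89 to 6.95 in wildtype), as did 8 of 10 stellate cell markers (6.52 to 7.30, 6.35 to 6.45, 5.72 to 5.86 and 5.85 to 6.16 in the same order of groups). The cholangiocyte markers Epcam, Pkhd1 and Tspan8, 3 of 6 tested, rose too, with a list median of 1.01. In double KO against Cxcr6 KO 3.44% of all genes rose and 3.96% fell. None of 13 hepatocyte markers was called there, but 4 of them (Cyp2e1, Fah, Hnf4a and Hpd) fell in the Nemo average, in which 12 of 20 macrophage, 15 of 16 endothelial, 8 of 10 stellate and 3 of 6 cholangiocyte markers rose. Of all genes, 15.4% fell and 4.84% rose in that average. The marker lists of neutrophils, monocytes, T cells, and NK and NKT cells averaged between 4.97 and 5.59 on all arrays, near the array medians of 5.19 to 5.38, although the monocyte marker Ly6c2 rose by 1.13 ± 0.22 in double KO against Cxcr6 KO (adjusted p = 0.0222). Ly6c2 was the 1 called of 5 tested monocyte and dendritic cell markers. Their median difference in this comparison was 0.07, with 3 of 5 higher. The part of these cells in the differences of the members, Casp12 and Il1a was not tested. The following are values of single arrays and test no link. Casp1 was highest within Nemo KO on replicate 3 (6.17), which also had the highest macrophage mean (8.27) and endothelial mean (7.65) of that group. Within double KO, Casp1 was lowest on replicate 3 (6.35), whose macrophage mean of 8.22 was above that of replicate 1 (7.62, with Casp1 at 6.43). Tnfrsf10b was highest within Nemo KO on replicate 2 (6.40), which had the lowest macrophage mean and the highest stellate mean of Nemo KO (6.45). Nemo KO replicate 2 and Cxcr6 KO replicate 2 had like macrophage means but differed in endothelial means (7.30 and 6.94) and stellate means (6.45 and 5.86), and their Mlkl signals were 8.66 and 7.09.

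**Figure D5:**
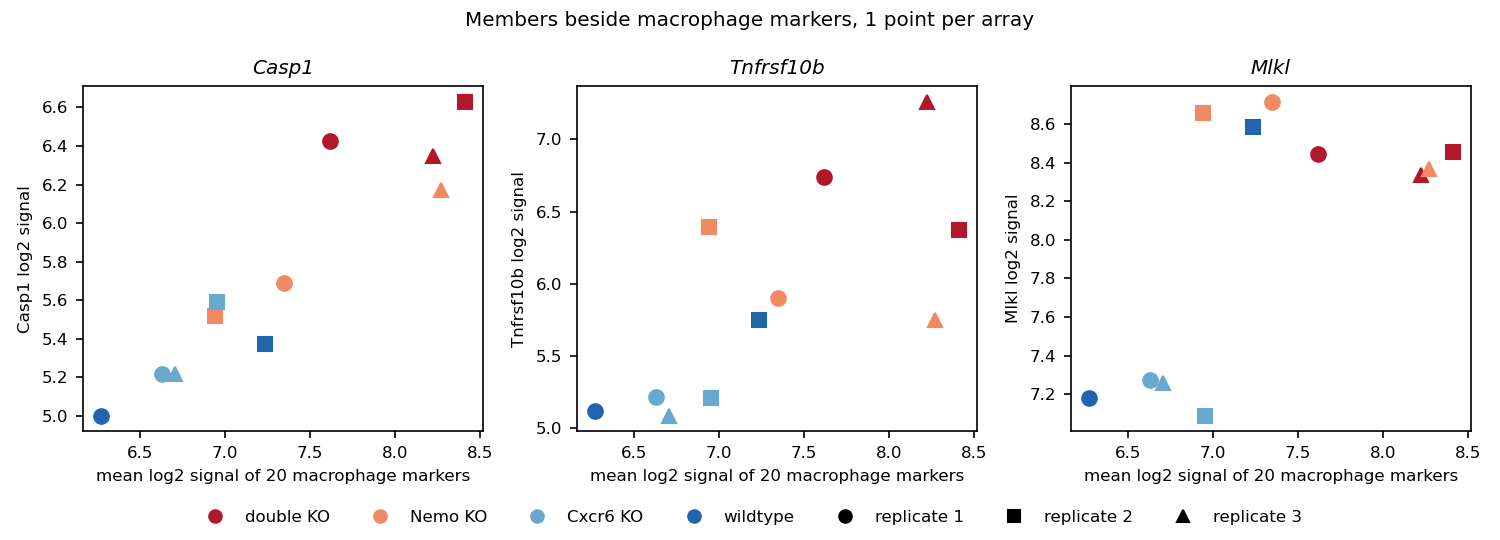
Log2 signal of Casp1, Tnfrsf10b and Mlkl (y axes) against the mean log2 signal of 20 macrophage markers (x axis), 1 point per array, coloured by genotype. Casp1 was mostly higher on arrays with higher marker means, though not in that order within double KO, while Mlkl lay in a high and a low set. No link was tested.

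The upstream sequences of the members called in a Nemo comparison are shown. These members did not all move alike, as Bid fell in double KO against Cxcr6 KO where the others rose. The sequences cover the 250 bases before the annotated start, from RefSeq (GRCm38.p6), read 5′ to 3′ on the strand of the gene. They lie at chr9:5298267-5298516 (plus strand) for Casp1, chr9:5308599-5308848 (plus) for Casp4, chr19:34290409-34290658 (plus) for Fas, chr8:111338206-111338455 (minus) for Mlkl and chr6:120916825-120917074 (minus) for Bid. Tnfrsf10b has no entry in the table. Capitals mark matches, on either strand, to the NF-kB decamer, the STAT element GAS (TTCNNNGAA), the core of the interferon-stimulated response element (GAAANNGAAA) or the p53 decamer.
Casp1: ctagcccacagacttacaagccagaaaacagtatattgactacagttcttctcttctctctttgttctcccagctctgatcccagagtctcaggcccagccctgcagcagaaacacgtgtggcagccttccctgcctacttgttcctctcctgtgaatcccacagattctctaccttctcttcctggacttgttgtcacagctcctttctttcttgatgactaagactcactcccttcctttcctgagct
Casp4: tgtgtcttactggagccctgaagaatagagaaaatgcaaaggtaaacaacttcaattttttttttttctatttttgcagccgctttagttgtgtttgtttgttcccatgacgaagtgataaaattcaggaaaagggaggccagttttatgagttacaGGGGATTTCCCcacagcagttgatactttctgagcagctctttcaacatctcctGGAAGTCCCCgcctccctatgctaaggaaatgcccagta
Fas: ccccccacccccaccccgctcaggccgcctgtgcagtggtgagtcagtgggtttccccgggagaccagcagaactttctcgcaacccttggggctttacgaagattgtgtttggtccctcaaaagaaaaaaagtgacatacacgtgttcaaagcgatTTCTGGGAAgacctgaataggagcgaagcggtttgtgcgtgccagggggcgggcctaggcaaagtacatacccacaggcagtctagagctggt
Mlkl: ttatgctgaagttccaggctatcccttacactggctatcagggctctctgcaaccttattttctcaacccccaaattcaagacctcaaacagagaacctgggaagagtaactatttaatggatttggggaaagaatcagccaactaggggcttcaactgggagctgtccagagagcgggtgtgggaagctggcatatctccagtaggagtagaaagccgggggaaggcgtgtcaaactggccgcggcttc
Bid: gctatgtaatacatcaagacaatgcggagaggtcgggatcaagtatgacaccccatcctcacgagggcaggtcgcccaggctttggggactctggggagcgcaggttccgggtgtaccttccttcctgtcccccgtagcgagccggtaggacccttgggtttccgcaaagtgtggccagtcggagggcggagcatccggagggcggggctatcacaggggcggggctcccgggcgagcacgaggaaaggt
Casp4 held 3 NF-kB decamer matches, of which those at 93 to 84 and 92 to 83 bases before the start overlap and the third lies at 39 to 30. Fas held 1 GAS match, at 93 to 85 bases. None of the 4 motifs matched in Mlkl, Casp1 or Bid. Of all 32851 promoters in the table, 7.25% held an NF-kB decamer, 7.02% a GAS match, 2.98% the interferon core and 7.13% a p53 decamer in a window of this length. Of the 9 members with an entry, Ripk1 included and Tnfrsf10b absent, 1, 3, 0 and 0 did. That count is per gene over 11 member promoters, an unlike measure to the share of promoters. The 3 GAS genes were Fas, Tnfrsf1a and Ripk1. A match is a string of letters and does not show a site in use.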

How the data were processed

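Per the labels' protocols, RNA was extracted with RNeasy columns and 300 ng was amplified with the Affymetrix WT Plus kit. The deposited values are log2 signals made by the authors, whose processing notes name Affymetrix Expression Console, RMA and Transcriptome Analysis Console. Tool versions and the genome build behind the rows are not given in the sources. Of 65956 rows, 30604 carried 1 gene symbol in the platform annotation, 2146 several and 33206 none. Symbols were updated by gene identifier (22818 matched, 827 changed) against RefSeq GRCm38.p6. A single limma model (version 3.58.1, R 4.3.3, lmFit then eBayes) covered all 11 arrays (1 mean per group, 7 residual degrees of freedom, prior 2.13), with 7 contrasts, two-sided tests and Benjamini-Hochberg adjustment over 18337 genes. Differences are given ± SE. The fit was tested on simulated data. The members and lists were chosen with earlier results of these data known. All members were named, with up to 4 called genes of smallest p per pathway list. Replicates with the same number were not treated as paired, as the numbers are not said to mark a shared litter or day. Over 15 such pairs the correlation of deviations ran from -0.27 to 0.28, and 6 exceeded 0.1, which leaves a pairing undecided. Alternatives were median centring, quantile normalization, other filters, means over rows, array weights, trended robust moderation, a replicate block, only the groups compared, and each array left out.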

Additional observations from a re-analysis of the deposited data

How the results depend on the processing

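With Casp4 counted, although only its double KO level made it testable, the number of members called moved as follows. For Nemo KO against wildtype it was 0, and 0 to 2 when an array was left out. For double KO against Nemo KO it was 0, became 1 with arrays centred on their medians and 3 with array weights, and stayed 0 with any array left out. For double KO against Cxcr6 KO it was 6, became 3 without the filter, and ran from 0 to 6 with an array left out. For Cxcr6 KO against wildtype it was 1 and became 0 with median centring, without the filter, with array weights, with the replicate number as a block and with only the 2 groups in the fit, and it ran from 0 to 1 with an array left out. The 1 member called there without wildtype replicate 1 was Mlkl, which fell by 1.38 (adjusted p = 0.00567), in place of Bid (adjusted p = 0.0553). For the Nemo average it was 5 and ran from 3 to 5 with an array left out, for the Cxcr6 and line average 1 and from 1 to 2, and for the interaction 0 and from 0 to 1. No called member reversed under any of these alternatives. Casp4 did not reach the stricter filter and has no value there. Over all genes, the replicate block moved the calls from 29 to 0 for Nemo KO against wildtype, from 109 to 61 for double KO against Nemo KO, from 47 to 24 for Cxcr6 KO against wildtype, from 144 to 53 for the Cxcr6 and line average and from 3715 to 3570 for the Nemo average, raised them from 1358 to 1507 for double KO against Cxcr6 KO, and left the interaction at 0. In double KO against Cxcr6 KO the block took the calls of Casp4 (adjusted p = 0.0664) and Mlkl (adjusted p = 0.0508), and in the Nemo average that of Casp4 (adjusted p = 0.0657). The labels do not say that the numbers pair the samples. Median centring gave 86 higher and 1188 lower genes for Nemo KO against wildtype (9 and 20 as deposited) and, for double KO against Nemo KO, 174 higher and 26 lower (67 and 42 as deposited), with the median of all genes at 0.16, against 0.04. For Cxcr6 KO against wildtype, 32 genes rose and 15 fell, against 36 and 9 after quantile normalization. The causes of these moves were not tested. With 2 or 3 arrays per group, the 95% intervals of Tnfrsf10b (-0.06 to 1.22) and Mlkl (-0.03 to 1.42) in Nemo KO against wildtype include 0.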

Other observations

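Casp1, Casp4 and Casp12 are neighbours on chromosome 9, and all 3 were called higher with Nemo deletion on average over both lines, Casp4 being testable only through its double KO level. The genes around them were read after these values were seen. The next gene beyond Casp12 with a tested row, Pdgfd, a platelet-derived growth factor, also reached the testing level in double KO alone, so that it had to be higher there. It differed by 0.78 ± 0.10 (adjusted p = 0.00654), with a mean of 6.0 in double KO hepatocytes, 5.25 in Nemo KO ones, 4.92 in Cxcr6 KO ones and 4.76 in wildtype ones. On the other side of Casp1, Msantd4, Kbtbd3, Aasdhppt and Cwf19l2 were not called, with differences from -0.47 to -0.01.

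Bid and Bcl2l13 are neighbours on chromosome 6, and both rose in Cxcr6-deficient animals on average, Bid by 0.86 ± 0.11 and Bcl2l13 by 1.40 ± 0.17 (adjusted p = 0.00935). Of the tested genes next to them, also read after these values were seen, Atp6v1e1 differed by 0.65 ± 0.13 (adjusted p = 0.0665) and Mical3 by 0.34 ± 0.09 (adjusted p = 0.129), while Hdhd5, Cecr2, Gm4651, Pex26 and Tuba8 lay between -0.29 and 0.33. Cxcr6 status and mouse line cannot be told apart in this contrast.

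The genes whose values most resembled a member's over the 11 arrays, which share the same groups and normalization, were Asap1 (Pearson's r = 0.98), H2-Q1 (0.98) and Nrg1 (0.98) for Tnfrsf10b, Ly6e (0.97), Gtpbp2 (0.96) and Tmem176a (0.95) for Mlkl, Sugct (0.96), Spryd7 (0.94) and Akr1e1 (0.94) for Bid, and Pla2g7 (0.97), Ppic (0.96) and Itpkb (0.96) for Casp1. These correlations are descriptions and carry no test.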
